A study of Mus musculus with 6 samples.

Results

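The 36 genes described here encode lysosomal peptidases, glycosidases, sulfatases, lipid-handling proteins and their precursors, membrane proteins of the lysosome, and the transcription factor Tfeb, and were taken by name from a table of 54100 genes. Each name occurred on 1 row of the table. RNA came from fibro-adipogenic progenitors (FAPs), mesenchymal cells of muscle sorted here as Pdgfra+ cells from the plantaris, a calf muscle, of C57BL/6 mice, with 1000 sorted cells in each tube. There were 3 libraries from sham plantaris and 3 from overloaded plantaris, and no genetic change is given for either group. The sources used here do not give how the load was applied or for how long, the age and sex of the mice, or whether each library came from a separate animal, so p-values measure only the spread between these libraries.

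Lysosomes are acidic compartments in which proteins, glycans and lipids that reach them by endocytosis or autophagy are broken down. Most of their soluble enzymes are sorted in the Golgi through mannose 6-phosphate tags, a proton pump keeps the lumen acidic, and heavily glycosylated membrane proteins line the boundary. Fibroblast-like cells use the system in part to degrade collagen and other matrix that they take up, and TFEB and its relatives TFE3 and MITF switch on many lysosomal genes by binding promoter elements built around CACGTG.

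Library totals were 500402 to 754456 counts in sham and 850857 to 1124210 in overloaded FAPs, so the sham libraries were the shallower ones throughout. Of 12 FAP markers, Dcn, Col1a1, Col3a1, Gsn, Ly6a and Pdgfra among them, all passed the count filter, and together they held 78330 ± 10386 CPM in sham libraries and 99041 ± 7844 CPM in overloaded ones (CPM, counts relative to library size after TMM scaling; SD, n = 3 in each group). The sum followed the collagen genes Col1a1, Col1a2 and Col3a1, which rose, while Dcn, Gsn, Pi16, Cd34 and Cd248 fell and the median log2 fold change of the 12 was -0.49. Of 18 macrophage markers none passed the filter, 7 (Adgre1, Aif1, C1qa, C1qb, Laptm5, Lyz2 and Tyrobp) had no count in any library, and the list summed to 25.8, 41.5 and 28.3 CPM in sham and 5.77, 17.6 and 16.2 CPM in overloaded libraries. Endothelial markers went from a sum of 168 ± 57.6 to 67.6 ± 32.8 CPM, most of it from Tek alone (119 ± 11.9 to 27.0 ± 4.18 CPM), with 8 of the 10 markers too low to test, and for the macrophage and endothelial sums the two-sided exact permutation p was 0.1, which is the lowest value 3 against 3 libraries allow. Muscle fibre markers went from 48.1 ± 12.2 to 28.1 ± 3.49 CPM (exact permutation p = 0.1), while pericyte, satellite cell, glia, tenocyte and other leukocyte markers had exact permutation p of 0.4 to 0.9, and what part any of these cells had in the results was not tested. Sensory receptor genes of the olfactory and vomeronasal families took up 1445, 1819 and 781 CPM of the library total in sham libraries. In overloaded ones they took up 308, 1092 and 232 on the same scale. The groups overlapped, as overloaded library 2 lay above sham library 3.

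Across the 36 genes the peptidases moved both ways by edgeR, and the 4 genes of other classes that it called were lower in overloaded FAPs, while Cd63, a membrane protein, was called higher by DESeq2 and limma-voom but not by edgeR. Ctsc, Ctsh and Ctsk rose, and Ctsf, Ctsl, Ctsa, Psap, Grn, Lamp2 and Laptm4a fell (adjusted p under 0.05 over 7207 genes, by the quasi-likelihood test of edgeR with Benjamini-Hochberg adjustment). The count filter left 29 of the 36 genes to test, so that 3 were higher, 7 lower and 19 not called. Of all 7207 genes tested, 15% were higher and 14.3% lower, or 29.3% in either direction, and the 10 of 29 (34.5%) called here lie near that background. Of the 10, DESeq2 called Ctsc, Psap, Lamp2 and Laptm4a, and edgeR without the filter on low counts called Ctsc, Ctsk and Psap. The median log2 fold change was -0.23 over the 29 genes and -0.02 over all genes tested. For 16 of the 29, sham and overloaded libraries did not overlap (5 with overloaded above sham and 11 below), which is 55.2% against 41.5% of all tested genes (21.2% above and 20.3% below). Ctsc passed the filter only through its overloaded libraries and Ctsa only through its sham libraries, so these 2 could hardly be tested without differing. Ctsf and Neu1 passed mainly through sham (3 sham libraries and 1 overloaded library past the filter). Lgmn passed mainly through overloaded libraries (1 sham and 3 overloaded).

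**Figure D1:**
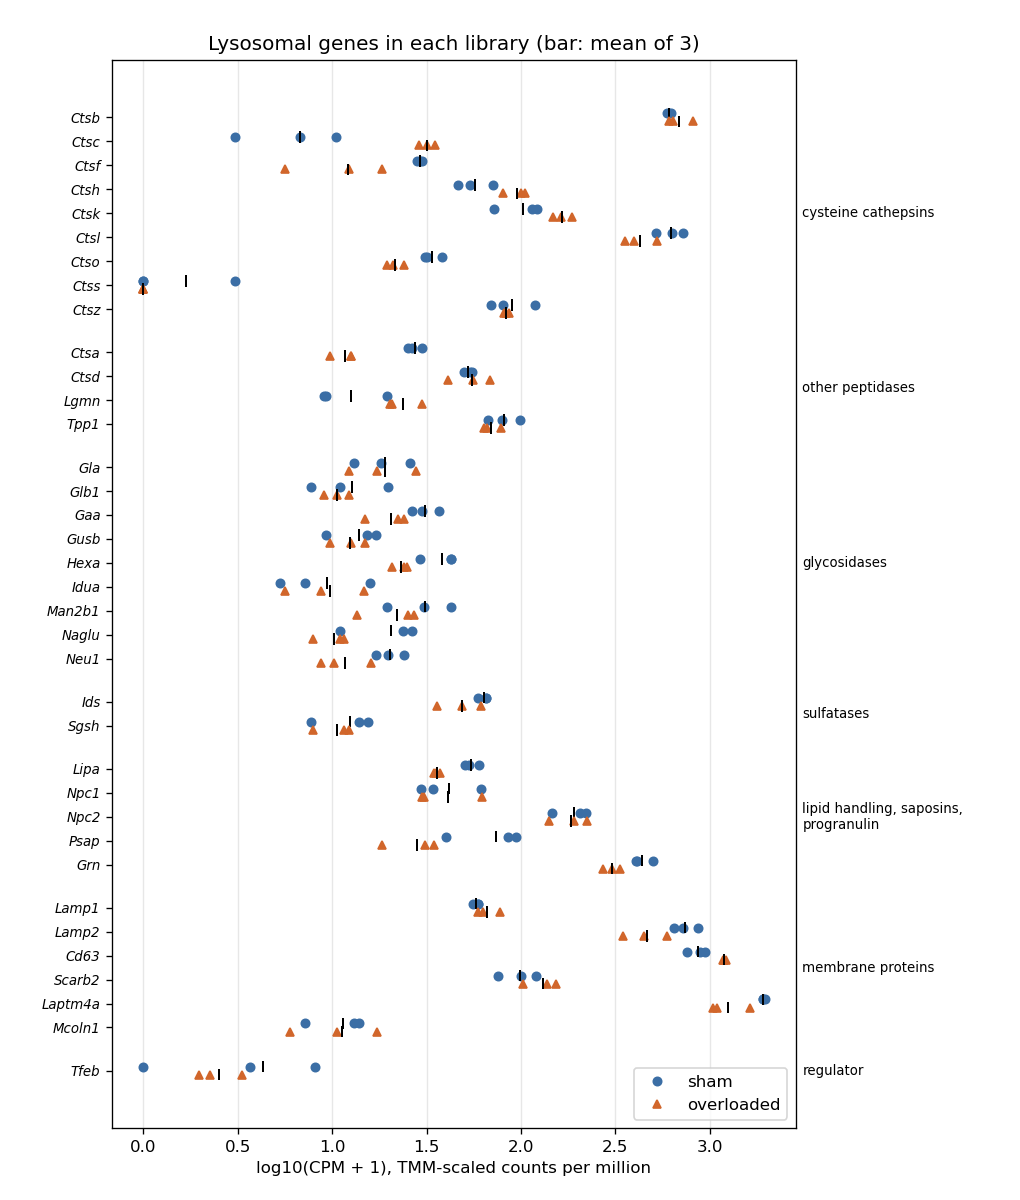
Level of each of the 36 genes in every library as log10(CPM + 1), with circles for the 3 sham and triangles for the 3 overloaded libraries and a bar at each group's mean (log10 of the mean CPM + 1). Ctsc stands apart with all overloaded libraries to the right, Psap, Ctsa and Ctsf with all sham libraries to the right, and Ctss and Tfeb lie near 0 in both groups.

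The share of all counts that fell in the 36 genes was 0.625%, 0.631% and 0.628% in the sham libraries and 0.593%, 0.494% and 0.482% in the overloaded ones. Their summed level was 6454 ± 89.9 CPM in sham libraries and 5553 ± 753 CPM in overloaded ones. The groups overlapped, as the sum of overloaded library 1, 6407 CPM, lay inside the sham range of 6371 to 6550 CPM. Laptm4a, a small membrane protein of endosomes and lysosomes, accounted for most of the difference between the means. Without it the sums were 4535 ± 69.9 and 4306 ± 433 CPM, with overloaded library 1 above all sham libraries. These values are shares of each library's counts and do not give transcripts per cell. Fewer lysosomal transcripts per cell, more of other transcripts and a change in which cells were sorted cannot be told apart in such bulk samples.

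Of the 36 genes, 33 had a promoter window in RefSeq (GRCm38.p6, 250 bases before to 50 after an annotated start). These 33 include genes that were not tested. The sequence TCACGTGA, which reads the same on both strands and is the inner part of the element that TFEB binds, occurred in a window of 4 of these 33 (12.1%), against 1.12% of all 27025 genes with a window and 2.37% of the 5645 tested ones. The shorter CACGTG, which TCACGTGA contains, occurred in 12 of 33 (36.4%), against 8.09% of all genes with a window and 12.21% of the tested ones. GTCACGTG, searched on both strands and overlapping the other 2 motifs, occurred in 9 of 33 (27.3%), against 2.55% of all genes with a window and 5.51% of the tested ones. Stretches of 150 bases are shown for the 4 genes with TCACGTGA, which is in capitals, because these genes share the element and differ in what was measured.
Ctsa, chr2:164833653-164833802, plus strand: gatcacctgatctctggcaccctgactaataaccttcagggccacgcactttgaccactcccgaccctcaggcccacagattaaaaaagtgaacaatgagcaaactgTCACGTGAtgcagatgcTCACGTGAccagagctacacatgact
Ctsd, chr7:142387798-142387947, minus strand: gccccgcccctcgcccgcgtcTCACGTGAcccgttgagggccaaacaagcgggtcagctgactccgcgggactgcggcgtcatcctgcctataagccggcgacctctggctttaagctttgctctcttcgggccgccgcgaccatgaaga
Gla, chrX:134601106-134601255, minus strand: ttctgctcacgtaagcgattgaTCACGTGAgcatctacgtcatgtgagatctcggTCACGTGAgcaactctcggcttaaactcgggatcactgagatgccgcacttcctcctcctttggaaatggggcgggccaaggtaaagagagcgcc
Mcoln1, chr8:3500399-3500548, plus strand: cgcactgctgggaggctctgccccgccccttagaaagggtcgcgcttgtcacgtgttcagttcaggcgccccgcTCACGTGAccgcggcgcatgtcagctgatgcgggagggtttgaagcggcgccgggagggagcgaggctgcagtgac

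Ctsa and Gla each held the element at 2 places, starting at bases -13 and 4 and at bases -228 and -195 from an annotated start, while Ctsd held it at base -99 and Mcoln1 at base -46. For Ctsa there were 2 windows, and the other window did not hold the element. The stretch shown for Ctsa, from base 164833653, lies inside the gene, which begins at base 164832873 by GENCODE M21. Of these 4 genes Ctsa fell, Ctsd and Gla were not called, and Mcoln1 had too few counts to test. Of the 12 genes with CACGTG 8 were tested and Ctsa, Ctsf and Ctsl were called, a share near the 34.5% called over the 29 genes, and Gaa, Gla, Glb1, Lamp1, Lgmn, Mcoln1, Naglu, Sgsh and Ctsd were not called or not tested. A match of letters is not a bound site.

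Among the cysteine cathepsins, papain-like proteases that do most of the protein cutting in lysosomes, 3 of the 8 tested rose and 2 fell. That is 62.5% called by edgeR, against 29.3% of all genes, over only 8 tested genes. Ctsc encodes dipeptidyl peptidase 1, which activates the granule proteases of leukocytes and mast cells (chromosome 7, 88278085 to 88310888). It was at 5.73, 2.07 and 9.42 CPM in sham and 30.8, 33.9 and 27.8 CPM in overloaded libraries, from 4, 1 and 7 counts against 32, 27 and 24. The lowest overloaded library was far above the highest sham library, with a log2 fold change of 2.3 (SE 0.48, adjusted p = 0.000516 by edgeR), and the call held in all 16 alternative fits that tested the gene, with values of 1.93 to 2.85. Fits with the count filter tested Ctsc only through its overloaded libraries, where it was high, so they are no independent support. A minimum count of 30 left the gene out. Leukocytes also carry Ctsc. Of their markers, Ptprc had 2, 4 and 5 counts over the sham libraries, against 0, 8 and 1 over the overloaded ones, and the mast cell protease Cpa3 had 8 counts, all in overloaded library 2. What part leukocytes had in the level of Ctsc was not tested.

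Ctsk, encoding cathepsin K, the collagen-cleaving protease best known from osteoclasts (chromosome 3, 95499256 to 95509362), was at 113, 120 and 71.3 CPM in sham libraries and 185, 162 and 147 CPM in overloaded ones. The groups did not overlap, sham library 3 was the lowest, and the log2 fold change was 0.71 (SE 0.24, adjusted p = 0.0257 by edgeR). Without sham library 3 it was 0.52 (adjusted p = 0.165 by edgeR) and without overloaded library 1 it was 0.64 (0.0729), and DESeq2 did not call it (adjusted p = 0.0508). Ctsh, encoding cathepsin H, a protease that trims proteins from their amino end (chromosome 9, 90054152 to 90076089), was at 53.0, 45.6 and 70.0 CPM in sham and 78.9, 104 and 99.5 CPM in overloaded libraries. Again the groups did not overlap, with a log2 fold change of 0.72 (SE 0.26, adjusted p = 0.0370 by edgeR). The call was lost without sham library 1 (adjusted p = 0.0824 by edgeR), sham library 2 (0.142), overloaded library 2 (0.0945) or overloaded library 3 (0.0908), with scaling by library size only (0.0608), without the filter on low counts (0.0646), without both libraries numbered 2 (0.262) and by DESeq2 (adjusted p = 0.121).

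Ctsl, encoding cathepsin L, a broadly acting protease (chromosome 13, 64359337 to 64370890), was at 630, 722 and 518 CPM in sham libraries and 526, 398 and 355 CPM in overloaded ones. The groups touched, with overloaded library 1 just above sham library 3, and the log2 fold change of -0.54 (SE 0.21, adjusted p = 0.0462 by edgeR) passed the test narrowly. Only without overloaded library 1 did it pass among the fits that left out 1 library, and for the others the adjusted p by edgeR was 0.0543 to 0.215. DESeq2 did not call it either (adjusted p = 0.0956). Exons of Ctsl overlap those of the gene models Gm49230 and Gm47123. Ctsf, encoding cathepsin F (chromosome 19, 4855130 to 4860918), was even in sham at 27.2, 29.0 and 28.3 CPM and uneven in overloaded libraries at 17.3, 11.3 and 4.63 CPM. All overloaded libraries lay below all sham ones, a log2 fold change of -1.30 (SE 0.45, adjusted p = 0.0263 by edgeR) that was -0.92 (0.149) without overloaded library 3. It was also not called without sham library 1 (0.0665), 2 (0.0665) or 3 (0.0819), nor by DESeq2 (adjusted p = 0.218).

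The 3 tested cysteine cathepsins that were not called were Ctsb, Ctsz and Ctso. Ctsb, encoding cathepsin B, was at 593, 618 and 608 CPM in sham libraries and 816, 609 and 635 CPM in overloaded ones, with overloaded library 1 the highest and library 3 just above the sham range (log2 fold change 0.18, SE 0.20). Ctsz, encoding the carboxypeptidase cathepsin Z, was at 117, 68.4 and 79.4 CPM in sham and 85.6, 80.3 and 82.1 CPM in overloaded libraries, all of the latter inside the sham range. Ctso was at 30.1, 37.3 and 31.0 CPM in sham and 23.1, 20.1 and 18.5 CPM in overloaded libraries, without overlap but not called (log2 fold change -0.65, SE 0.36, adjusted p = 0.182 by edgeR). Ctss, encoding cathepsin S of antigen-presenting cells, which lies next to Ctsk on chromosome 3 (95526786 to 95556403), had 1 count in all 6 libraries together, in sham library 2.

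The other peptidases are a serine carboxypeptidase, an aspartic protease, legumain and a tripeptidyl peptidase, and 1 of the 4 fell (25% called by edgeR, against 29.3% of all genes). Ctsa encodes a serine carboxypeptidase that holds beta-galactosidase and the sialidase Neu1 in a protective complex (chromosome 2, 164832873 to 164841032). It was at 24.3, 29.0 and 25.6 CPM in sham and 11.5, 8.78 and 11.6 CPM in overloaded libraries, well apart, with a log2 fold change of -1.28 (SE 0.43, adjusted p = 0.0239 by edgeR). With 7 to 19 counts in each library its call was lost in 5 of the 6 fits that left out 1 library, at -1.15 to -1.31 on the log2 scale and an adjusted p by edgeR of 0.0537 to 0.0727, while it was kept without sham library 1. DESeq2 did not call it (adjusted p = 0.213). Its exons overlap those of Neurl2 and Pltp on the opposite strand. The partners of Ctsa were not called. Neu1 was at 22.9, 18.7 and 16.1 CPM in sham and 7.69, 15.05 and 9.25 CPM in overloaded libraries (log2 fold change -0.86, SE 0.48, adjusted p = 0.181 by edgeR). Glb1, the beta-galactosidase gene, was not tested. It had 5 to 9 counts over the sham libraries, against 7 to 10 over the deeper overloaded ones (11.8 ± 6.17 against 9.67 ± 1.60 CPM).

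Ctsd, encoding the aspartic protease cathepsin D, was at 48.7, 53.9 and 52.5 CPM in sham and 67.3, 40.1 and 54.4 CPM in overloaded libraries, which lay on both sides of sham (log2 fold change 0.07, SE 0.29). Its exons overlap those of the gene model Gm49369. Lgmn, encoding legumain, which cuts after asparagine and processes cathepsins, was at 18.6, 8.30 and 8.07 CPM in sham and 19.2, 28.8 and 19.7 CPM in overloaded libraries. These did not overlap by a small margin, and the log2 fold change of 0.91 (SE 0.46, adjusted p = 0.140 by edgeR) became 1.48 and called (0.0496) without sham library 1. Tpp1, a tripeptidyl peptidase, was at 65.9, 97.5 and 78.0 CPM in sham and 62.5, 77.7 and 64.8 CPM in overloaded libraries, with most values shared (log2 fold change -0.23, SE 0.26).

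**Figure D2:**
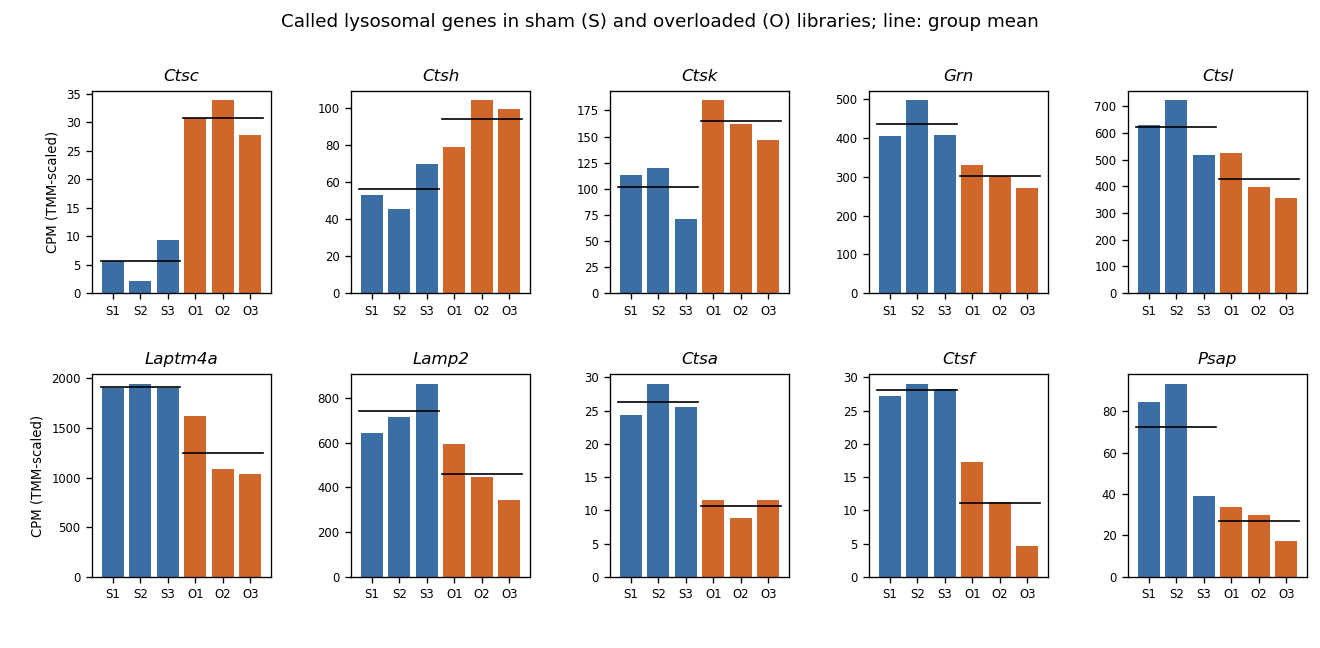
Level in CPM of the 10 called genes in sham libraries S1 to S3 and overloaded libraries O1 to O3, with a line at each group's mean. Ctsc, Ctsh and Ctsk are higher in every overloaded library, and of the 7 lower genes 6 have overloaded library 1 as their highest and 6 have overloaded library 3 as their lowest overloaded value.

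Glycosidases, which strip sugars from glycoproteins, glycolipids and matrix glycans, gave no called gene among the 6 tested, by edgeR, DESeq2 or limma-voom, with 1 (Hexa) at an unadjusted p under 0.05 by edgeR. Over all genes tested, edgeR called 29.3%. Hexa, encoding the alpha subunit of beta-hexosaminidase, was at 41.5, 41.5 and 28.3 CPM in sham and 23.1, 23.8 and 19.7 CPM in overloaded libraries, without overlap (log2 fold change -0.72, SE 0.35, adjusted p = 0.123 by edgeR). Gaa, the acid alpha-glucosidase that degrades glycogen, was at 35.8, 29.0 and 25.6 CPM in sham and 23.1, 21.3 and 13.9 CPM in overloaded libraries, also without overlap (log2 fold change -0.62, SE 0.38). Man2b1, an alpha-mannosidase, was at 18.6, 41.5 and 29.6 CPM in sham and 26.0, 12.5 and 24.3 CPM in overloaded libraries, which overlapped (log2 fold change -0.46, SE 0.40). Gla and Gusb, the genes of alpha-galactosidase A and beta-glucuronidase, had log2 fold changes of 0.07 (SE 0.45) and -0.21 (SE 0.51). Standard errors of the 6 genes were 0.35 to 0.51, against 0.21 for Ctsl, which has many more counts.

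Heparan sulfate, a matrix glycan, is taken apart by a chain of enzymes that includes the sulfatases Ids and Sgsh and the glycosidases Idua and Naglu. Ids, encoding iduronate 2-sulfatase, was at 64.4, 58.1 and 64.6 CPM in sham and 60.6, 47.7 and 34.7 CPM in overloaded libraries and was not called (log2 fold change -0.38, SE 0.29, adjusted p = 0.344 by edgeR). The other 3 had too few counts to test. Naglu had 7, 11 and 19 counts over the sham libraries, against 11, 8 and 6 over the deeper overloaded ones (19.5 ± 8.29 against 9.18 ± 1.96 CPM). Idua had 3, 3 and 11 against 8, 11 and 4 (8.44 ± 5.59 against 8.71 ± 4.67 CPM). Sgsh had 9, 7 and 5 against 11, 9 and 6 (11.4 ± 4.11 against 9.60 ± 2.33 CPM). At this depth no difference in these 3 genes was tested.

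Among genes for lipid handling and for the precursors of lysosomal cofactors, 2 of 5 fell (40% called by edgeR, against 29.3% of all genes). Psap encodes prosaposin, which is cut into the saposins that help enzymes reach their lipids (chromosome 10, 60277627 to 60302597). It was at 84.5, 93.3 and 39.0 CPM in sham and 33.7, 30.1 and 17.4 CPM in overloaded libraries. Sham library 3 stood close to the overloaded ones but above them all, and the log2 fold change was -1.38 (SE 0.34, adjusted p = 0.00267 by edgeR). The call held in 16 of 17 alternative fits, with each library left out in turn among them. Grn encodes progranulin, a secreted protein that is cut into granulins in lysosomes (chromosome 11, 102430315 to 102437048). It was at 405, 498 and 409 CPM in sham libraries and 332, 302 and 272 CPM in overloaded ones, clear of each other, with a log2 fold change of -0.53 (SE 0.20, adjusted p = 0.0456 by edgeR). Leaving out any 1 library ended its call, at -0.43 to -0.58 on the log2 scale and an adjusted p by edgeR of 0.0554 to 0.192. DESeq2 did not call it (adjusted p = 0.0788). Exons of Grn overlap those of Fam171a2.

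Lipa, the acid lipase that frees cholesterol from its esters, was at 58.7, 51.9 and 49.8 CPM in sham and 34.6, 36.4 and 33.5 CPM in overloaded libraries, even within each group and without overlap, yet not called at 25 to 41 counts a library (log2 fold change -0.62, SE 0.30, adjusted p = 0.127 by edgeR). Npc1 and Npc2, which pass cholesterol out of the lysosome, had log2 fold changes of -0.05 (SE 0.35) and -0.04 (SE 0.23), signs that some alternatives turned. Npc2 was at 219, 203 and 145 CPM in sham libraries and 221, 189 and 139 CPM in overloaded ones, and Npc1 at 28.6, 33.2 and 60.5 CPM against 29.8, 28.8 and 61.3 CPM. In both genes library 3 of each group stood apart from libraries 1 and 2 in the same direction.

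Of the 5 membrane proteins tested, Lamp2 and Laptm4a fell and Lamp1, Cd63 and Scarb2 were not called (40% called by edgeR, against 29.3% of all genes). Lamp2, an abundant lysosomal membrane glycoprotein needed for the fusion of autophagosomes and for chaperone-mediated autophagy (chromosome X, 38401357 to 38456454), was at 643, 716 and 862 CPM in sham libraries and 592, 446 and 345 CPM in overloaded ones. The groups did not overlap and overloaded library 1 lay close to sham, with a log2 fold change of -0.68 (SE 0.21, adjusted p = 0.0144 by edgeR). It was -0.54 (adjusted p = 0.123 by edgeR) without sham library 3 and -0.49 (0.114) without overloaded library 3. Lamp1, its close relative, was at 54.4, 58.1 and 57.9 CPM in sham and 61.6, 76.5 and 57.8 CPM in overloaded libraries, and did not pass the test (log2 fold change 0.20, SE 0.27, adjusted p = 0.633 by edgeR). Whether the 2 genes differ in their response was not tested. Exons of Lamp1 overlap those of Grtp1.

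Laptm4a (chromosome 12, 8921664 to 8938742) was at 1904, 1945 and 1907 CPM in sham, nearly the same in each library, and at 1621, 1085 and 1038 CPM in overloaded libraries. Its log2 fold change was -0.62 (SE 0.20, adjusted p = 0.0195 by edgeR), and overloaded library 1 was again the nearest to sham. The call was lost without any sham library (adjusted p = 0.0632 by edgeR, 0.0710 and 0.0710 without library 1, 2 and 3) and without overloaded library 2 (0.0807) or 3 (0.109). Cd63, a tetraspanin of late endosomes and exosomes, went the other way, at 946, 753 and 881 CPM in sham libraries and 1179, 1174 and 1220 CPM in overloaded ones. Its groups did not overlap and its overloaded libraries were close together, but edgeR did not call it (log2 fold change 0.47, SE 0.19, adjusted p = 0.0643), while DESeq2 (adjusted p = 0.00674) and limma-voom (0.0464) did. Scarb2, the receptor that carries beta-glucocerebrosidase to lysosomes, was at 98.8, 74.7 and 118 CPM in sham libraries and 152, 135 and 102 CPM in overloaded ones, which overlapped (log2 fold change 0.40, SE 0.25). The calcium channel gene Mcoln1 was not tested. It had 9, 3 and 9 counts over the sham libraries, against 10, 4 and 14 over the deeper overloaded ones (10.4 ± 3.64 against 10.3 ± 5.62 CPM).

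**Figure D3:**
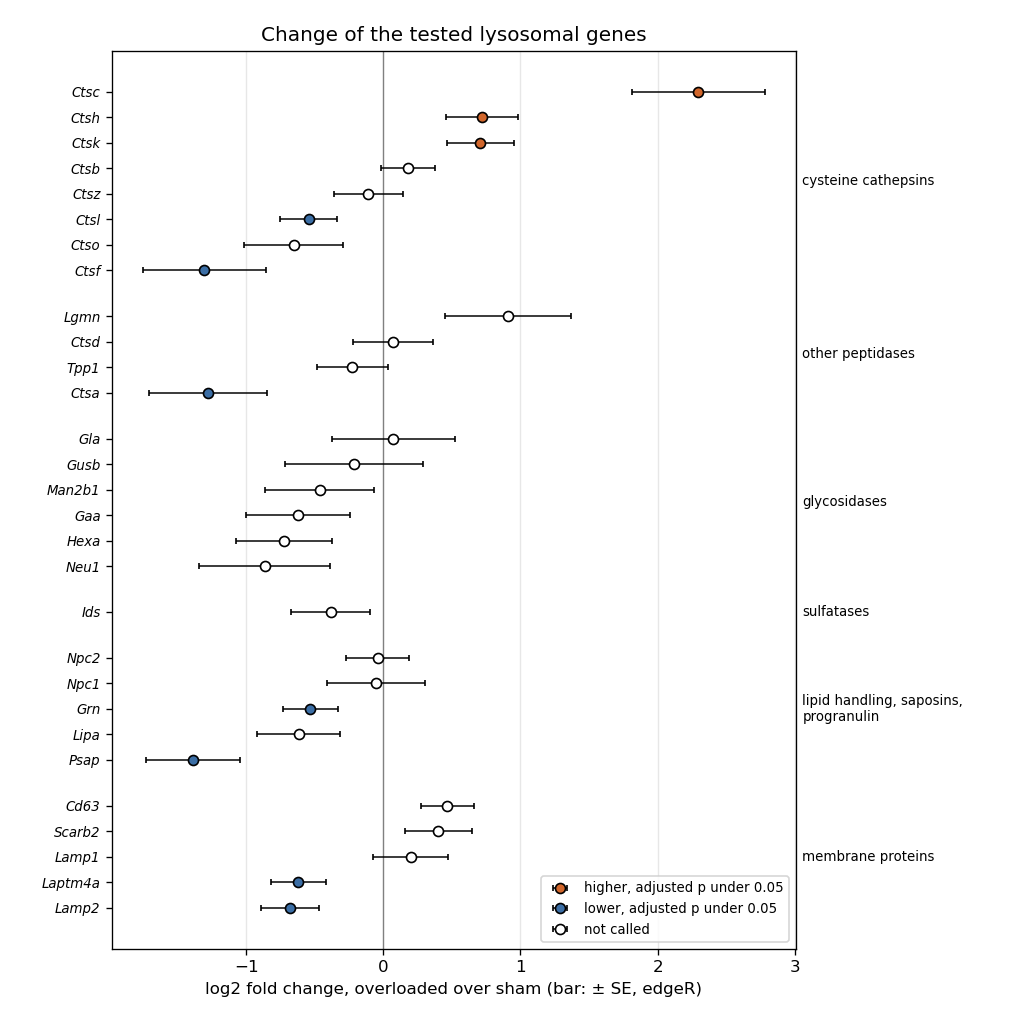
Log2 fold change of overloaded over sham for the 29 tested genes by class, with bars for ± 1 standard error; filled points passed the test. Peptidases lie on both sides of 0 from Ctsc at 2.3 to Ctsf at -1.30, glycosidases lie at or below 0.07, and Psap at -1.38 is the lowest.

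Tfeb itself (chromosome 17, 47737030 to 47792419) had 5, 0 and 2 counts over the sham libraries, against 1, 1 and 2 over the overloaded ones, too few for a comparison. The list of its relatives and of the nutrient-sensing machinery on the lysosomal surface held 24 genes, of which 15 were tested and 2 rose, Lamtor1 and Rraga (13.3%, against 15% higher over all genes). Mitf (49.1 ± 7.92 against 28.6 ± 13.2 CPM, sham against overloaded) and Tfe3 (51.4 ± 6.68 against 33.2 ± 3.72 CPM) were lower without overlap but not called (adjusted p = 0.0938 and 0.124 by edgeR). Lamtor1 and Rraga belong to the platform that recruits the growth kinase mTORC1 to lysosomes. Lamtor1 was at 50.1, 20.7 and 32.3 CPM in sham and 77.9, 79.0 and 90.2 CPM in overloaded libraries, all above sham (log2 fold change 1.22, SE 0.30, adjusted p = 0.00248 by edgeR), and its exons overlap those of Lrrc51. Rraga was at 169, 118 and 91.5 CPM in sham libraries and 196, 212 and 197 CPM in overloaded ones (log2 fold change 0.67, SE 0.23, adjusted p = 0.0290 by edgeR), and was not called without sham library 2 or 3 or overloaded library 2, nor by DESeq2.

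Other lysosomal hydrolases and their cofactors, a list of 40 with 24 tested, had 6 lower genes (25% of those tested, against 14.3% lower among all genes). Of the 24, 22 had a log2 fold change below 0 and 2 above it, while 48.8% of all genes tested were above 0. The median was -0.39 for the list and -0.02 over all genes tested. The list was chosen with earlier results known, so these values are no test of it. No gene of the list was higher by edgeR, DESeq2 or limma-voom, and none was higher at an unadjusted p under 0.05 by edgeR. Smpdl3a, an acid phosphodiesterase, fell from 107 ± 11.3 to 20.9 ± 5.20 CPM (log2 fold change -2.34, SE 0.30, adjusted p = 4.42e-07 by edgeR). Cpq, a secreted and lysosomal carboxypeptidase, fell from 851 ± 120 to 315 ± 92.3 CPM (adjusted p = 9.6e-06 by edgeR), and Gm2a, the activator protein of the beta-hexosaminidase to which Hexa contributes, from 137 ± 29.2 to 56.6 ± 16.7 CPM (0.000372). The calls of Smpdl3a and Cpq held in all 17 alternatives and that of Gm2a in 16. Exons of Cpq overlap those of 4930592A05Rik.

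The sorting route to the lysosome had 2 lower genes among 9 tested of 15 (22.2%, against 14.3% lower over all genes), and both encode receptors of the sortilin family. Sorl1 was at 54.4, 72.6 and 71.3 CPM in sham and 9.62, 12.5 and 3.47 CPM in overloaded libraries (log2 fold change -2.93, SE 0.39, adjusted p = 1.06e-06 by edgeR), far apart and called in all 17 alternatives. Sort1, encoding sortilin, which binds progranulin and prosaposin, was at 15.8, 24.9 and 20.2 CPM in sham and 8.66, 6.27 and 3.47 CPM in overloaded libraries (log2 fold change -1.66, SE 0.53, adjusted p = 0.0171 by edgeR). Like Grn and Psap it fell by edgeR, and it was not called without sham library 2 or 3 or overloaded library 3, nor by DESeq2. Sorl1 and Sort1 both passed the count filter only through their sham libraries, the group where they were higher. Their share of the list and the fits with that filter are therefore no independent support. Without the filter Sorl1 was called and Sort1 was not. Exons of both receptor genes overlap those of a non-coding gene model, Gm16214 for Sorl1 and Gm12523 for Sort1.

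Of 19 proton pump subunit genes 15 were tested and 1, Atp6v1f, was lower (6.67% of those tested, against 14.3% lower over all genes; 152 ± 10.9 to 92.9 ± 39.8 CPM, adjusted p = 0.0415 by edgeR), with overloaded library 1 at 48.1 CPM and the other two at 124 and 106 CPM. The median log2 fold change of the tested subunits was 0.08. The call of Atp6v1f was lost with DESeq2 and without sham library 1, 2 or 3 or overloaded library 1 or 3. Of 35 further lysosomal membrane proteins 16 were tested, 3 fell and 1 rose (25% called, against 29.3% of all genes), and DESeq2 called none of the 4. The iron transporter gene Slc11a2 rose from 17.5 ± 2.35 to 42.8 ± 7.29 CPM (adjusted p = 0.00739 by edgeR), the nucleoside transporter gene Slc29a3 fell from 29.4 ± 6.72 to 9.64 ± 5.84 CPM (0.00798) and was not called without sham library 3, and Slc38a9 and Lmbrd1 fell with adjusted p by edgeR of 0.0326 and 0.0419. Slc38a9 and Lmbrd1 were each lost without any sham library and without overloaded library 2 or 3.

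Of 28 autophagy genes 23 were tested and 2 fell (8.7%, below the 14.3% lower over all genes), of which DESeq2 called Map1lc3b and not Ulk1. Map1lc3b, which encodes the LC3B protein of the autophagosome membrane, fell from 234 ± 15.8 to 132 ± 26.1 CPM (adjusted p = 0.00443 by edgeR), and Ulk1, the kinase that starts autophagy, from 58.2 ± 14.3 to 25.2 ± 6.00 CPM (0.00604). Exons of Map1lc3b overlap those of Zcchc14. Inhibitors of cathepsins and related proteases moved both ways, with 2 of the 5 tested of 13 higher and 1 lower. That is 60% called by edgeR, against 29.3% of all genes, over only 5 tested genes. Cst3, encoding the secreted inhibitor cystatin C, fell from 1103 ± 73.7 to 549 ± 135 CPM (log2 fold change -1.01, SE 0.20, adjusted p = 0.000347 by edgeR). Cstb, encoding the cytosolic inhibitor stefin B, rose from 102 ± 27.6 to 162 ± 16.4 CPM (0.0355), and Serpinb1a, a serpin with closely related gene copies among which reads may be shared, from 52.4 ± 5.13 to 106 ± 37.9 CPM (0.00632). Cstb was not called without sham library 2 or 3 or overloaded library 2, nor with scaling by library size only or by DESeq2, and Serpinb1a not without overloaded library 3.

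**Figure D4:**
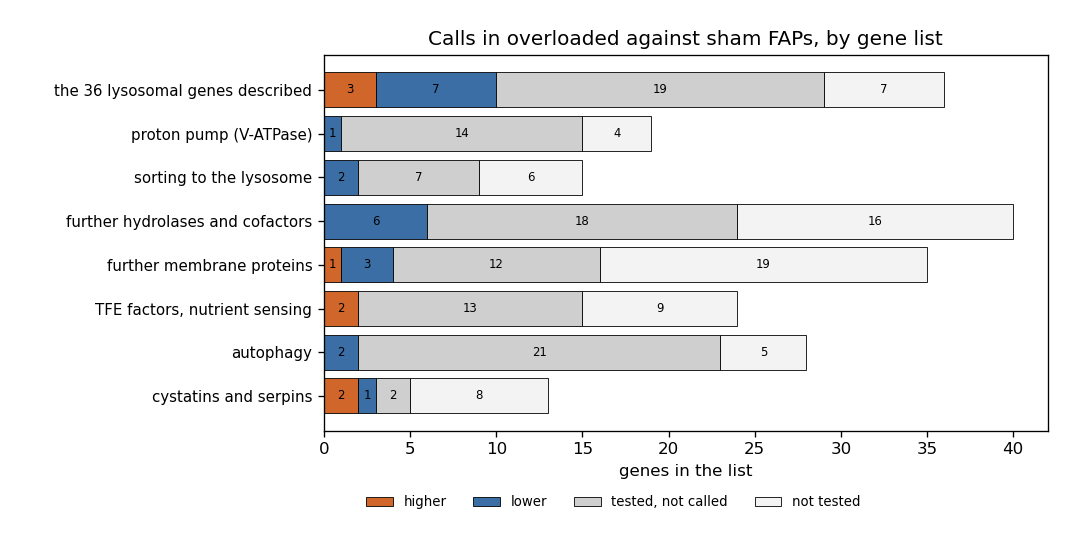
Number of genes higher, lower, tested but not called, and not tested for the 36 genes described and 7 lists of related genes. The further hydrolases hold 6 lower genes of 24 tested and the proton pump 1 of 15.

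Depth differed between the groups without overlap. Receptor reads were mostly fewer in overloaded libraries, but library 2 of that group, at 1092 CPM of the library total, lay above sham library 3, at 781. With every library thinned to the smallest total, 24 of the 36 genes were tested, 3 were higher and 5 lower, Ctsa no longer passing the filter and Ctsf no longer called (adjusted p = 0.0885 by edgeR). With the share of receptor reads in each library as a covariate, Ctsc alone was called among the 36, with 0 lower by edgeR, while the share called among all genes fell to 13.1%. In that fit Psap had a log2 fold change of -0.63 (adjusted p = 0.437 by edgeR), Lamp2 of -0.82 (0.064) and Ctsk of 1.03 (0.0554). The covariate was mostly lower in the overloaded group, so its part in these changes and that of the load cannot be told apart.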

How the data were processed

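RNA was measured in 6 libraries of 1000 sorted cells each, made per the labels' protocols with a method published by Hashimshony and colleagues. The authors deposited raw counts per gene, not normalised. Per the submitters' processing notes, the authors used build GRCm38 with featureCounts 2.0.1, HISAT2 2.2.1, DESeq2 1.28.1 and Trim Galore 0.6.6. For the annotation, the strand setting and molecular identifiers, nothing is stated (not given in the sources used here), so reads of overlapping genes cannot be told apart, which touches 12 of the 36 genes by GENCODE M21, and reads may not be independent molecules.

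Here, edgeR 4.0.16 (R 4.3.3) kept genes by filterByExpr (minimum count 10, minimum total 15), scaled by TMM, and tested overloaded against sham over all genes kept with the robust quasi-likelihood F test and Benjamini-Hochberg adjustment. CPM are relative to the counts of tested genes after TMM, and SE is the log2 fold change over the square root of F. Alternatives used DESeq2 1.42.0, limma-voom 3.58.1, other scaling and filters, thinning, a replicate block, a covariate, and each library left out. The 36 genes and all lists were chosen with earlier results of these data known. Values by library are given for called genes, for Tfeb, Lamp1, Ctsd and Ctss, and for the best-counted uncalled genes of each class, and from the other lists called genes are named by adjusted p, up to 3 in each direction. Libraries of a group differed by 3.75 to 6.61 in chi-square per degree of freedom, so none was a copy.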

Additional observations from a re-analysis of the deposited data

How the results depend on the processing

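Over the 17 alternatives the number of genes called lower moved more than the number called higher. Against 3 higher and 7 lower genes of the 36, DESeq2 gave 2 and 3, no filter on low counts 2 and 1, the block with thinning 3 and 4, the receptor read covariate 1 and 0, and leaving out both libraries numbered 2, chosen after the data were seen, 2 and 1. Leaving out 1 library gave 2 to 3 higher and 1 to 5 lower, in fits with fewer samples. Such numbers hide exchanges among the higher genes. DESeq2 kept Ctsc, lost Ctsh and Ctsk and gained Cd63. Without sham library 1 Ctsh was lost and Lgmn gained. The median log2 fold change of the tested genes was -0.23, and it was -0.29 with library size only, -0.17 with DESeq2, -0.14 without the filter, -0.12 with a minimum count of 30, -0.36 with thinning, -0.39 with the block and thinning, -0.39 with the covariate and -0.45 to -0.22 with 1 library left out. For all genes, 1084 higher and 1027 lower became 557 lower with DESeq2 and 498 and 449 with the covariate, while leaving out 1 library left 853 to 1073 and 742 to 960.

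In the related lists together, 5 higher and 15 lower genes became 3 and 7 with DESeq2, 1 and 5 with the covariate, 1 and 9 without both libraries numbered 2, 3 higher with thinning, 2 higher with the block and thinning, and 3 to 6 higher and 9 to 14 lower with 1 library left out. The cause of these shifts was not tested. Signs turned only in genes that were not called. Ctsd was at -0.30 with thinning, -0.35 with the block and thinning, -0.19 with the covariate and -0.094 to 0.26 with 1 library left out. Npc1 was at 0.017 with DESeq2, 0.028 without the filter, 0.18 with thinning, 0.22 with the block and thinning, 0.013 without both libraries numbered 2 and -0.47 to 0.39 with 1 library left out. Npc2 was at 0.016 with DESeq2, 0.044 without the filter, 0.25 with the covariate and -0.18 to 0.15 with 1 left out, Man2b1 at 0.062 without both libraries numbered 2, Ctsz at -0.24 to 0.19 and Gla at -0.32 to 0.34 with 1 left out. Log2 differences of summed markers turned for glia (-1.29 to 0.21), pericytes (-0.23 to 0.0021), satellite cells (-1.12 to 0.14) and tenocytes (-0.32 to 0.49).

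The replicate number as a block gave 3 higher and 6 lower genes of the 36, without Grn. Same-numbered libraries deviated together by a correlation of only 0.0082, 0.014 and 0.015. Sham libraries 2 and 3 went best with the overloaded library of their own number, and sham library 1 with overloaded library 3 (0.0112). As all these correlations were small, the numbers were not taken to pair samples. No symbol of the 36 was repeated, and summing repeated rows would change no value. The median SE of the 29 genes was 0.29 on the log2 scale, and genes with few counts had the largest.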
